A study of Mus musculus with 24 samples.

Results

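The response of neonatal mouse microglia to a mixture of 4 cytokines was compared with that of unstimulated cells, in 6 of the 24 RNA-seq libraries of the series. The mixture held 2 interferons, IFNg (gamma) and IFNa (alpha), with IL-6 (an interleukin) and TNFa (tumour necrosis factor). The members were chosen by their labels, as the 3 libraries given all cytokines and the 3 left unstimulated. All came from neonatal MRL/lpr mice, a lupus-prone strain that carries the lpr mutation of Fas in both groups. Brain cells were taken up by CD11b with magnetic beads, kept for 48 h in serum-containing culture and, in the mixture group, exposed to the cytokines for 6 h. The doses, and whether the unstimulated cells were left for the same further 6 h, are not in the labels. The same fit held 12 further neonatal libraries, 3 each for IFNg, IL-6, IFNa and TNFa alone. The labels do not say whether replicates were separate cultures, litters or animals, so p-values measure only the spread between these samples.

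Microglia are the resident macrophages of the brain and carry receptors for each of the applied cytokines. IFNa acts on its target genes through the interferon-stimulated response element (ISRE), IFNg through the gamma-activated site (GAS), IL-6 through STAT3, and TNFa through the IKK kinases to NF-kappaB, which binds kappaB sites. Many inflammatory promoters hold sites for more than 1 of these factors, and macrophages exposed to an interferon and TNF together are known for making chemokines, nitric oxide and itaconate.

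Levels below are CPM, counts relative to library size after TMM scaling, which corrects for library composition. Where 3 values are given for a group, they are those of replicates 1, 2 and 3 in that order. Changes are log2 fold changes ± SE of the mixture minus unstimulated cells, from edgeR's quasi-likelihood test with the replicate number as a block. A gene "rose" or "fell" where its p, adjusted over all 14626 genes tested, was under 0.05. Names that the naming rule does not give were picked with their values in view.

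Total counts were 12589181 to 17392820 in the unstimulated and 14867764 to 18984003 in the mixture libraries. The labelled cell type was checked against 10 markers of microglia and macrophages, which summed to 8867 to 9643 plain CPM (per total count) in the unstimulated and 6284 to 7250 in the mixture libraries. None of the 10 was at 0, and on the TMM scale 5 rose, 2 fell and 3 did not pass. Plain CPM lacks the TMM correction, whose factors differ between the groups. Csf1r, the receptor that microglia need to survive, stood at 1744, 2195 and 2623 CPM in the unstimulated libraries and 1473, 1998 and 2265 CPM with the mixture. Tmem119, a marker of resting brain microglia, was low in these cultures, at 7.10, 7.24 and 5.51 CPM without cytokines. Fas, the gene that lpr disrupts, stood at 1.29, 0.181 and 0.675 CPM in the unstimulated libraries and 10.1, 4.88 and 7.85 CPM with the mixture, and it rose with a log2 fold change of 3.55 ± 0.67 (edgeR adjusted p = 0.000241). These levels do not check the genotype, since both groups carry lpr. Replicate 1 of both groups stood apart in markers of astrocytes, with 466 plain CPM unstimulated and 415 with the mixture against 44.6 to 81.5 in the other 4 libraries. It also stood apart in mural cell or fibroblast markers, with 561 and 553 against 116 to 142. Unstimulated replicate 3 had the highest level of many interferon-stimulated genes in its group, and mixture replicate 2 the lowest level of several genes of the IFNg response. Without unstimulated replicate 3, 5492 genes were called, and without mixture replicate 2, 5720.

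With the mixture, 6314 of 14626 genes (43.2%) passed the test, of which 3002 rose (20.5% of genes tested) and 3312 fell (22.6%). Counts for the lists below are to be set beside these shares. By at least 2-fold, 3012 changed (20.6%), 1638 of them upward and 1374 downward. On the TMM scale, large changes were mostly increases. At least 4-fold, 818 genes rose and 306 fell. At least 16-fold, 254 rose and 27 fell, and at least 64-fold, 93 rose and 6 fell. The change had the same sign in all 3 replicate pairs for 98.3% of the genes that rose and 98.9% of those that fell. The split depends on the scaling. With total counts only, 1902 rose and 6347 fell (23.1% of calls higher, against 47.5%), and the median of all genes moved from -0.05 to -0.46. At least 2-fold, 1150 then rose and 2879 fell, at least 4-fold 610 and 626, at least 16-fold 206 and 48, and at least 64-fold 86 and 7, so that increases then outnumbered decreases at 16-fold and 64-fold but not at 2-fold or 4-fold. TMM factors were 1.02 to 1.23 in unstimulated and 0.759 to 0.906 in mixture libraries, and changes are relative to that scale. Of the 401 function list genes called, 30 did not pass with total counts only, and 9 small increases among them turned sign without passing (among them Cd44, Csf3r, Ctss, Ifi27l2a, Ifngr2, Mrc1, Naip2 and Pkm). Of the genes described below, Cd74, Chuk, H2-D1 and H2-DMa also did not pass then, whereas Bax, Ccl6, Clec7a, Csf1r, Cxcl14, Gapdh, Ikbkg, Irf3, Stat5a, Stat6, Tgfb1 and Trem2, which do not pass on the TMM scale, were lower. RLE size factors turned the sign of 0 called function list genes.

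**Figure D1:**
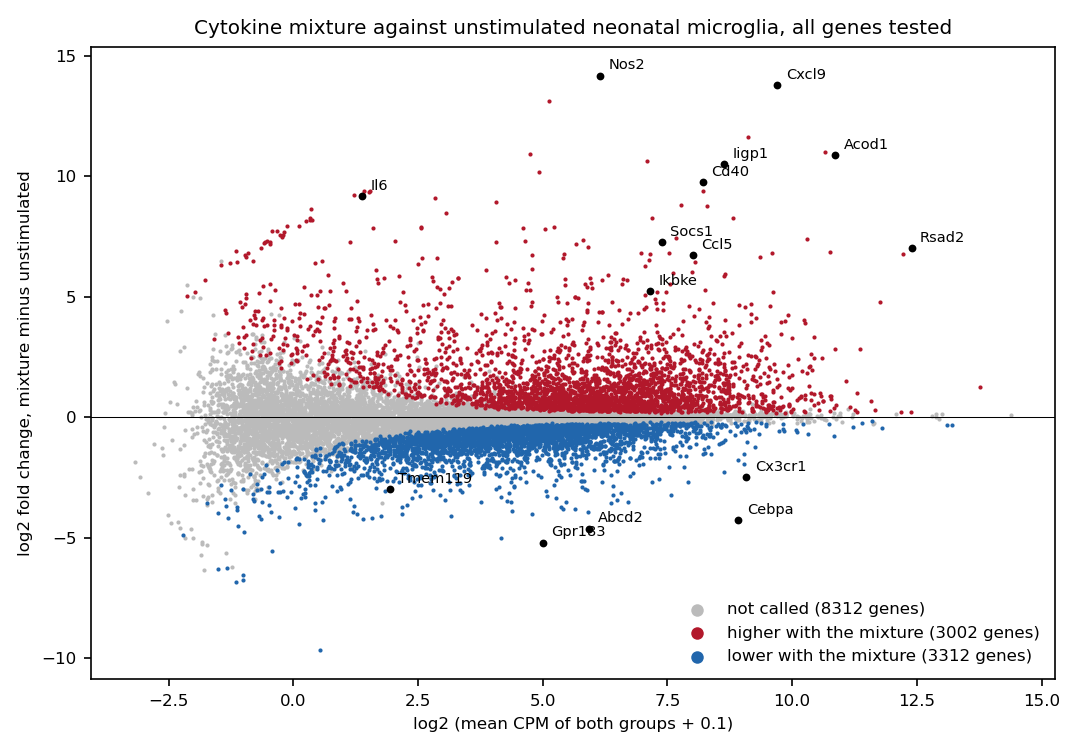
Log2 fold change of each of the 14626 genes tested (mixture minus unstimulated, y axis) against the log2 of its mean CPM over both groups plus 0.1 (x axis). Red points rose, blue points fell and grey points did not pass. Black points are named genes. Increases extend further from 0 than decreases, as in the counts of 93 and 6 genes past 64-fold. Nos2 and Il6 had 0 unstimulated reads, so their plotted values depend on the model.

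Promoter sequences, which the comparison did not use, were searched for the core letters of the sites these cytokines act through. RefSeq promoters (GRCm38.p6, 250 bases before to 50 after each transcript's start) were found for 576 of the 818 genes that rose at least 4-fold, 721 promoters in all. The letters searched on both strands were GAAA, any 2 bases and GAAA for the ISRE core, TTC, any 3 bases and GAA for the GAS core, and GGGA, any 4 bases and CC for the kappaB core; matches of different motifs may overlap. The ISRE letters were in 13% of these promoters, in 1.77% of the 282 promoters of genes that fell at least 4-fold, in 3.3% of the 13819 promoters of all genes tested, and in 3.44% of all 32851 promoters in the table. The GAS letters were in 11.5%, 6.74%, 6.67% and 8.3% of these sets, and the kappaB letters in 24.8%, 21.6%, 26.4% and 20.7%. The kappaB share of the genes that rose was thus below that of all genes tested. Among function lists, 11 of 12 promoters of interferon-inducible GTPases (11 of 20 genes matched) held the ISRE letters, and 0 of 20 promoters of NF-kappaB subunits and feedback genes (15 of 18 matched) did, of which 13 held the kappaB letters. The GAS letters were in 58.3% of the GTPase and 25% of the NF-kappaB promoters, and the kappaB letters in 16.7% of the GTPase promoters. Of 27 cell cycle promoters, 0 held the ISRE letters, 3.7% the GAS letters and 33.3% the kappaB letters. A match describes letters only and shows no binding. The 250 bases before the start are shown for 5 genes described below, with matches in capitals, to set promoters with different letters beside each other.
Cxcl10 (chr5:92348890-92349139, minus strand): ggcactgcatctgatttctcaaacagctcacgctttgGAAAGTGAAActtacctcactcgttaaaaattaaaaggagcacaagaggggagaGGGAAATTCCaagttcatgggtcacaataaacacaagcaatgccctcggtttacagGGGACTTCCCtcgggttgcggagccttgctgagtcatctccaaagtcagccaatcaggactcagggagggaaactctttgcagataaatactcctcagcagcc
Gbp5 (chr3:142496684-142496933, plus strand): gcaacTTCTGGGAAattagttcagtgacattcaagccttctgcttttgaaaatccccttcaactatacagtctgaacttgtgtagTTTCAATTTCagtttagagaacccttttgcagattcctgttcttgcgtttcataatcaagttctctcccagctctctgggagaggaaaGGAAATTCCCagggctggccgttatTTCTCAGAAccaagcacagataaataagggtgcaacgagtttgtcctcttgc
Rsad2 (chr12:26456453-26456702, minus strand): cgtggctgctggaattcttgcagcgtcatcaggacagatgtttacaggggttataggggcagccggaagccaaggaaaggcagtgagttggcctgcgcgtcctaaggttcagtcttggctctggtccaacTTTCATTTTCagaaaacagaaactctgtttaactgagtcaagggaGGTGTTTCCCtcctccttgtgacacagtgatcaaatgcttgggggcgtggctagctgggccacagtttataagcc
Nfkbia (chr12:55492648-55492897, minus strand): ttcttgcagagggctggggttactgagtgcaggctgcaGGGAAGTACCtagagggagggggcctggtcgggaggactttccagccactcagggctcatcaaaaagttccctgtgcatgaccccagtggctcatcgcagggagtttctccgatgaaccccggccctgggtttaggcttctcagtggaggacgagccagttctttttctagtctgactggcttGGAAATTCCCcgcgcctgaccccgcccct
Ikbke (chr1:131279564-131279813, minus strand): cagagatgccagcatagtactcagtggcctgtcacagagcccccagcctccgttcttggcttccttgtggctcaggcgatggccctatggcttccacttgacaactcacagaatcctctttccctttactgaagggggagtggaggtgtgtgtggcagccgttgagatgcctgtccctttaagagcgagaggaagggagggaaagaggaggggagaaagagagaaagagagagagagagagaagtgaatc
Read 5′ to 3′ on the gene's strand, Cxcl10 has 1 ISRE match and 2 kappaB matches, and Gbp5 has 1 ISRE, 2 GAS and 1 kappaB match. Rsad2 has 1 ISRE and 1 kappaB match, Nfkbia has 2 kappaB matches, and Ikbke has 0 matches in this window.

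Ikbke, the kinase gene named in the title of the series, rose with the mixture, together with several of its partners. IKKepsilon, its product, and TBK1 are related kinases that activate IRF3 and act on NF-kappaB signalling. Ikbke (ENSMUSG00000042349, mm10 chromosome 1, 131254343 to 131279606, minus strand) stood at 5.87, 6.64 and 9.67 CPM in the unstimulated libraries and 229, 304 and 301 CPM with the mixture. The 2 groups were far apart in every replicate, and the change was a log2 fold change of 5.23 ± 0.21 (edgeR adjusted p = 1.75e-11). Tbk1 moved less, from 68.4, 67.2 and 70.2 to 148, 197 and 135 CPM, with a log2 fold change of 1.201 ± 0.13 (edgeR adjusted p = 7.43e-07). Of the 16 kinases and adaptors listed, 11 rose, 3 fell and 2 did not pass, with a median log2 fold change of 1.02 against -0.05 over all genes tested. Tank, a scaffold that holds TBK1 and IKKepsilon, rose by 2.87 ± 0.17 (edgeR adjusted p = 4.06e-10), from 18.5, 21.6 and 17.9 to 135, 149 and 140.2 CPM. Increases of at least 2-fold were also seen in Myd88 (2.65), the adaptor of most Toll-like receptors, in Optn (2.00) and Azi2 (1.99), which bind TBK1, and in Tbkbp1 (1.40) and Tifa (1.23). The genes that fell were Mavs (-1.09), the mitochondrial adaptor of the RNA sensors, Irak4 (-0.62) and Irak1 (-0.27). Of the classical IKK subunits, Chuk rose by 0.43, while Ikbkb (0.20, edgeR adjusted p = 0.125) and Ikbkg (-0.22, 0.11) did not pass.

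**Figure D2:**
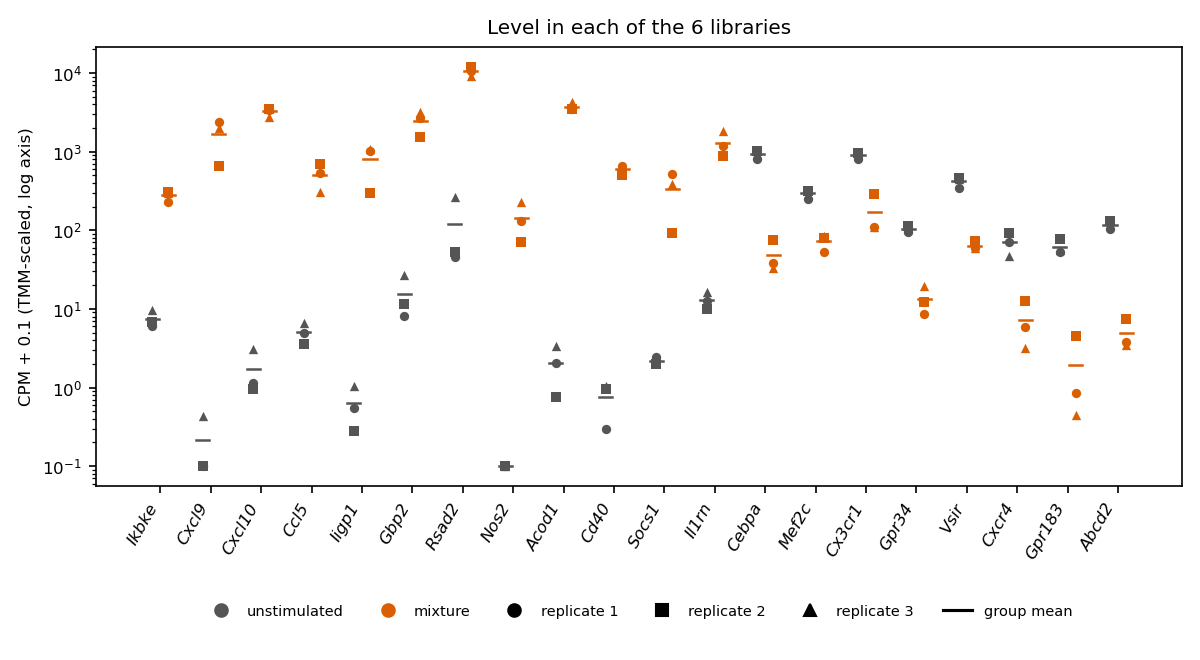
CPM plus 0.1 (log axis) of 20 genes in each of the 6 libraries, with unstimulated libraries in grey and mixture libraries in orange; marker shapes give the replicate and bars the group mean. The groups do not overlap in any of these genes, against 42.1% of all genes tested, and the naming rule required this of some of them. Mixture replicate 2 (square) is the lowest of its group for Cxcl9, Iigp1, Gbp2, Socs1 and Nos2, and unstimulated replicate 3 (triangle) the highest of its group for Rsad2, Gbp2 and Cxcl10.

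Receptors of the applied cytokines moved in both directions, while the kinases behind them rose. Ifngr1, the ligand-binding chain of the IFNg receptor, fell from 108, 120.1 and 124 to 25.9, 38.3 and 28.4 CPM, a log2 fold change of -1.93 ± 0.15 (edgeR adjusted p = 6.4e-09). Il6st, the signalling chain shared by IL-6 family receptors, fell from 337, 413 and 592 to 106, 140.1 and 253 CPM (-1.48 ± 0.16, edgeR adjusted p = 8.35e-07). In both genes, every mixture library was below every unstimulated one. Il6ra (-0.83) and Ifnar1 (-0.57) fell too. Tnfrsf1a, the main TNF receptor, rose by 1.24 ± 0.13 (edgeR adjusted p = 2.26e-07), and Tnfrsf1b, at 387, 481 and 522 CPM in the unstimulated libraries and 375, 1198 and 534 CPM with the mixture, did not pass (0.55, edgeR adjusted p = 0.154). Of the receptor-associated kinases, Jak2 rose from 40.3, 48.6 and 45.4 to 242, 249.2 and 246 CPM with a log2 fold change of 2.46 ± 0.15 (edgeR adjusted p = 2.4e-10), Tyk2 rose by 2.07 ± 0.092 and Jak1 by 0.73 ± 0.087. In all, 5 of 11 rose, 4 fell and 2 did not pass, with a median of 0.32; with total counts only, 4 rose and 5 fell.

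Most STAT and IRF genes rose, as did their best known brakes. Of 18 STAT, IRF and related factors tested, 13 rose, 0 fell and 5 did not pass, with a median of 1.92. Irf1, an early target of IFNg, stood at 34.0, 37.3 and 57.4 CPM in the unstimulated libraries and 1281, 418 and 1356 CPM with the mixture, with a log2 fold change of 4.57 ± 0.42 (edgeR adjusted p = 4.04e-06). Mixture replicate 2 was well below the other mixture libraries, yet above all unstimulated ones. Irf8, a lineage factor of macrophages, behaved alike, at 268, 361 and 423 CPM in the unstimulated libraries and 2307, 651 and 2689.6 CPM with the mixture (2.41 ± 0.41, edgeR adjusted p = 0.000603). Batf2, a partner of IRF factors, rose by 5.71 ± 0.53, and Nlrc5, the transactivator of MHC class I genes, by 4.92 ± 0.36. Stat2 (1.99) and Stat3 (2.24) rose, whereas Stat5a (0.033, edgeR adjusted p = 0.886), Stat6 (-0.23, 0.173) and Irf3 (-0.11, 0.508) did not pass. Ciita, the transactivator of MHC class II genes, was read at 0, 0 and 0.169 CPM in the unstimulated libraries and 5.65, 0.146 and 5.42 CPM with the mixture, a read ratio of 62.3 (95% counting interval 20.9 to 306) with an edgeR adjusted p of 0.00465. Mixture replicate 2 held about as little of it as unstimulated cells, so the groups overlap. Its fitted log2 fold change was 5.59, and became 8.82 without unstimulated replicate 3, 4.74 without unstimulated replicate 1, 6.35 without mixture replicate 2 and 4.66 without mixture replicate 3.

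SOCS proteins are induced by cytokine signalling and shut it off. Socs1, the brake on interferon signalling, stood at 2.32, 1.87 and 2.02 CPM in the unstimulated libraries and 515, 92.2 and 394 CPM with the mixture, and rose with a log2 fold change of 7.28 ± 0.84 (edgeR adjusted p = 3.29e-05); without mixture replicate 2 the log2 fold change was 7.92. Socs3, the brake on IL-6 signalling, stood at 7.49, 0.845 and 2.08 CPM in the unstimulated libraries and 77.9, 95.3 and 128 CPM with the mixture and rose by 4.95 ± 0.57 (edgeR adjusted p = 2.91e-05). Unstimulated replicate 1 was its highest control library, and without it the log2 fold change was 6.07. Socs7 rose by 2.52 ± 0.19 and Ptpn2, a phosphatase acting on JAK and STAT proteins, by 1.46 ± 0.17, while Socs6 (-1.24 ± 0.11), Socs5 (-0.88 ± 0.15) and Socs4 (-0.31 ± 0.12) fell. Of the 13 listed brakes, 8 rose, 3 fell and 2 did not pass, with a median of 1.05.

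All 20 interferon-inducible GTPases tested rose, with a median log2 fold change of 5.99 and no overlap between groups in any (42.1% of all genes tested had none). These are the guanylate-binding proteins and immunity-related GTPases that attack the vacuoles of intracellular pathogens. Gbp5 (ENSMUSG00000105504, mm10 chromosome 3, 142493978 to 142522344, plus strand), whose promoter is shown above, stood at 1.29, 1.57 and 6.02 CPM in the unstimulated libraries and 985, 802 and 898 CPM with the mixture, with a log2 fold change of 8.29 ± 0.62 (edgeR adjusted p = 8.76e-07). Iigp1 stood at 0.452, 0.181 and 0.956 CPM in the unstimulated libraries and 1024, 295 and 1075 CPM with the mixture, with a log2 fold change of 10.50 ± 1.14 (edgeR adjusted p = 2.07e-05). In both, every mixture library was far above every control, and unstimulated replicate 3 was the highest control. Gbp4 rose by 8.76 ± 1.05 and Tgtp2 by 8.28 ± 0.83. Tgtp1 had 0 reads in unstimulated cells and 85.5, 31.1 and 93.4 CPM with the mixture, at least 1168-fold higher than the floor of 3 reads over the group, and Gbp11 was likewise at least 92.3-fold higher. Gbp11 is annotated as a polymorphic pseudogene, and whether it makes a protein here was not tested. Tgtp1 and Gbp11 passed the filter for low counts only through cytokine groups, so neither could have fallen. Gvin1, also listed, was not tested. The smallest increase was that of Irgm1, from 100.1, 116 and 248 to 1726, 1214 and 1859.9 CPM (3.46 ± 0.37). Without unstimulated replicate 3 the log2 fold change was 9.65 for Gbp4, 9.24 for Gbp5 and 11.11 for Iigp1. Tgtp1 and Tgtp2, and Gbp6 and Gbp10, are near-identical copies whose reads may be divided uncertainly between them. Against IFNg alone, 1 of these 20 genes was higher (Gbp3, log2 difference 0.99 ± 0.24, edgeR adjusted p = 0.00921) and 0 were lower, against 11.9% and 14.4% of all genes. Against TNFa alone all 20 were higher.

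Antiviral interferon-stimulated genes and the sensors of foreign nucleic acid rose throughout. Of 32 antiviral genes tested, 32 rose, with a median of 2.78; with total counts only, 31 did. Rsad2 (viperin; ENSMUSG00000020641, mm10 chromosome 12, 26442746 to 26456452, minus strand) stood at 45.8, 53.2 and 265 CPM in the unstimulated libraries and 10778, 11961 and 9294 CPM with the mixture, with a log2 fold change of 7.03 ± 0.83 (edgeR adjusted p = 4.13e-05). Its neighbour Cmpk2, a mitochondrial nucleotide kinase, stood at 52.4, 66.7 and 214 CPM in the unstimulated libraries and 9819, 11082 and 7289.5 CPM with the mixture and rose by 6.79 ± 0.83. Unstimulated replicate 3 was the highest control in both, still far below the mixture. The IFIT genes, whose products bind viral RNA, rose by 6.53 (Ifit1bl1), 4.81 (Ifit2) and 4.61 (Ifit1). For Ifit1bl1 the log2 fold change was 5.82 without mixture replicate 2, 7.29 without mixture replicate 3 and 7.21 without unstimulated replicate 3. Mx1 rose by 4.68 ± 0.38, Isg20, an exonuclease, by 5.20 ± 0.39, and Isg15, a ubiquitin-like modifier, by 4.23 ± 0.36, with Usp18, which removes it, at 4.12 ± 0.53. Oligoadenylate synthetases, which activate RNase L, rose less, with Oas1a at 1.86 and Oas3 at 2.13. Ifi27l2a was the smallest at 0.35 ± 0.12 (edgeR adjusted p = 0.0234).

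Among 19 sensors tested, 19 rose, with a median of 2.7. Tlr3, the endosomal receptor of double-stranded RNA, stood at 18.9, 24.3 and 41.5 CPM in the unstimulated libraries and 383, 461 and 424 CPM with the mixture (3.99 ± 0.42, edgeR adjusted p = 1.31e-05). Ifih1 (MDA5), a cytosolic RNA sensor, stood at 76.1, 87.1 and 173 CPM in the unstimulated libraries and 1598, 1816 and 1494 CPM with the mixture (3.98 ± 0.45). Both were well separated between groups. Zbp1, a sensor of Z-form nucleic acid, rose by 3.69 ± 0.39, Nod2, a sensor of bacterial cell wall, by 3.65 ± 0.21, and Nlrp3, which builds an inflammasome, by 2.92 ± 0.16. Tlr2, at 64.7, 70.3 and 57.8 CPM in the unstimulated libraries and 242, 592 and 167 CPM with the mixture, rose by 2.25 ± 0.30, but was below its level with TNFa alone (log2 difference -1.67 ± 0.29, edgeR adjusted p = 0.00064).

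NF-kappaB genes and the survival genes of TNF signalling rose as whole lists. All 18 NF-kappaB subunits and feedback genes tested rose, with a median of 2.22 and no overlap between groups in any (42.1% of all genes tested had none). Nfkbie, an inhibitor of NF-kappaB that is itself an NF-kappaB target, stood at 12.3, 13.03 and 10.97 CPM in the unstimulated libraries and 264, 339 and 375 CPM with the mixture, with a log2 fold change of 4.75 ± 0.19 (edgeR adjusted p = 9.23e-12). Nfkbia (IkappaB alpha), whose promoter is shown above, stood at 52.9, 59.0 and 59.7 CPM in the unstimulated libraries and 468, 659 and 415 CPM with the mixture and rose by 3.13 ± 0.15 (edgeR adjusted p = 2.66e-11). The groups were far apart for both genes. The subunits Relb (3.00), Nfkb2 (2.80), Nfkb1 (2.39), Rel (1.35) and Rela (0.95) all rose. Tnip3 rose by 3.39 ± 0.36 and Tnfaip3 (A20), a ubiquitin-editing brake on TNF signalling, by 2.80 ± 0.19.

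All 14 genes of TNF survival signalling tested rose too, with a median of 1.92. Traf1, a receptor adaptor, stood at 0.258, 0.422 and 0.169 CPM in the unstimulated libraries and 47.0, 70.4 and 79.1 CPM with the mixture, with a log2 fold change of 7.82 ± 0.53 (edgeR adjusted p = 3.88e-08). Birc3, a ubiquitin ligase that keeps RIPK1 from killing the cell, stood at 11.7, 17.32 and 13.8 CPM in the unstimulated libraries and 149, 159.6 and 171 CPM with the mixture and rose by 3.49 ± 0.20. Ripk2, the kinase behind NOD1 and NOD2, rose by 2.94 ± 0.21. The anti-death genes Cflar (2.45), Mcl1 (1.90) and Bcl2a1a (2.81) also rose; the Bcl2a1 copies share sequence and their reads may be divided uncertainly. Effectors of regulated cell death rose beside them, with 16 of 18 higher, 1 lower, 1 not passing and a median of 1.70. Tnfsf10 (TRAIL), a death ligand, stood at 2.90, 4.89 and 12.5 CPM in the unstimulated libraries and 573, 462 and 547 CPM with the mixture, with a log2 fold change of 6.46 ± 0.79 (edgeR adjusted p = 5.24e-05). Casp4, the sensor caspase of intracellular endotoxin, rose by 4.46 ± 0.20, and Mlkl, the executor of necroptosis, by 3.82 ± 0.36. Bcl2l11 (BIM), which triggers apoptosis in the absence of growth factor signals, fell by 1.80 ± 0.31 (edgeR adjusted p = 0.000494), and Bax did not pass (0.075, edgeR adjusted p = 0.634).

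Of 11 CXC chemokines tested, 6 rose and 5 did not pass. The genes of the 3 ligands of CXCR3, which draw T cells and NK cells, lie next to each other on chromosome 5. Of these, Cxcl11 is annotated as a polymorphic pseudogene, and whether these mice make its protein was not tested. Cxcl9 (ENSMUSG00000029417, mm10 chromosome 5, 92321347 to 92328079, minus strand) stood at 0, 0 and 0.337 CPM in the unstimulated libraries and 2376, 657 and 1977 CPM with the mixture, Cxcl10 (ENSMUSG00000034855, mm10 chromosome 5, 92346638 to 92348889, minus strand) at 1.03, 0.845 and 2.98 CPM in the unstimulated libraries and 3418, 3535 and 2795 CPM with the mixture, and Cxcl11 (ENSMUSG00000060183, mm10 chromosome 5, 92359544 to 92365485, minus strand) at 0, 0 and 1.07 CPM in the unstimulated libraries and 1020.0, 902 and 1398 CPM with the mixture. In each of the 3 genes the lowest mixture library was far above the highest unstimulated one. The genes were named for their large changes, so this separation is not separate evidence. The changes were 13.80 ± 1.25 for Cxcl9 (edgeR adjusted p = 4.78e-06), 11.02 ± 1.07 for Cxcl10 (8.58e-06) and 11.66 ± 0.92 for Cxcl11 (1.52e-06). All unstimulated reads of Cxcl9 and Cxcl11, and most of those of Cxcl10, came from replicate 3, and without it the log2 fold changes were 18.11, 11.69 and 16.80. For Cxcl9 they were 14.58 without mixture replicate 2, 13.12 without mixture replicate 3, 13.15 without unstimulated replicate 1 and 13.09 without unstimulated replicate 2, and limma-voom gave an adjusted p of 0.0985. Cxcl16, the ligand of CXCR6, rose by 2.21 ± 0.094. The 5 CXC chemokines that did not pass were Cxcl1 (1.64), Cxcl3 (2.32) and Cxcl5 (1.03), which attract neutrophils, and Cxcl12 (-0.63) and Cxcl14 (-0.23).

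The CC chemokines, which attract monocytes and T cells, had a median of 4.12, with 10 of 12 tested genes higher and 0 lower. Ccl5 (ENSMUSG00000035042, mm10 chromosome 11, 83525778 to 83530518, minus strand) stood at 4.91, 3.44 and 6.47 CPM in the unstimulated libraries and 532, 689 and 309 CPM with the mixture, with a log2 fold change of 6.73 ± 0.49 (edgeR adjusted p = 4.95e-07). Ccl12 stood at 0.516, 0.483 and 1.74 CPM in the unstimulated libraries and 423, 559.6 and 321 CPM with the mixture and rose by 8.81 ± 0.69, or 9.84 without unstimulated replicate 3. Ccl7 rose by 5.90 ± 0.56 and Ccl2 by 5.52 ± 0.49; reads of Ccl2 and Ccl12 may be divided uncertainly. Ccl3 and Ccl4, detected in all unstimulated libraries, rose by 2.83 ± 0.24 and 3.54 ± 0.27. Ccl6 (-0.07, edgeR adjusted p = 0.626) and Ccl24 (-0.39, 0.681) did not pass.

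Most transcripts of cytokines rose, including those of 2 of the cytokines applied. Of 20 tested, 16 rose, 1 fell and 3 did not pass, with a median of 2.65. Il6 and Il12b, with 0 unstimulated reads, passed the filter for low counts only through cytokine groups and could not have fallen. Il12a, Il23a, Csf2 and Ifnb1 were listed but not tested. Tnf stood at 5.29, 6.395 and 4.84 CPM in the unstimulated libraries and 203, 203 and 82.6 CPM with the mixture, with a log2 fold change of 4.78 ± 0.30 (edgeR adjusted p = 1.62e-08). Il6 (ENSMUSG00000025746, mm10 chromosome 5, 30013114 to 30019981, plus strand) had 0 unstimulated reads and 8.77, 4.37 and 1.88 CPM with the mixture, at least 81.9-fold higher (edgeR adjusted p = 0.000102). Il1rn, which blocks the IL-1 receptor, stood at 12.6, 9.77 and 16.4 CPM in the unstimulated libraries and 1198, 869 and 1851 CPM with the mixture and rose by 6.64 ± 0.37. Its mixture libraries were all far above the controls. Il1b, the agonist of that receptor, stood at 1.68, 2.23 and 0.506 CPM in the unstimulated libraries and 19.3, 52.7 and 10.6 CPM with the mixture and rose by 4.14 ± 0.30, and Il27, a cytokine that acts on T cells, stood at 0.839, 0.543 and 0.619 CPM in the unstimulated libraries and 148, 103 and 81.7 CPM with the mixture and rose by 7.36 ± 0.60. Il15, which sustains NK cells, and its presenting chain Il15ra rose by 4.37 ± 0.48 and 4.998 ± 0.53. Il12b was at least 24.4-fold higher over the pooled group (edgeR adjusted p = 0.00598), at 0 reads in unstimulated cells and 2.30, 0.219 and 1.88 CPM with the mixture. Mixture replicate 2 held little of it, so the bound does not describe that library. The fitted log2 fold change of Il12b was 7.57, or 8.58 without mixture replicate 2, 6.60 without mixture replicate 3 and 5.13 in limma-voom. The gene that fell was Igf1, a growth factor of microglia (-0.51 ± 0.10, edgeR adjusted p = 0.000322); Tgfb1 did not pass (0.14, edgeR adjusted p = 0.248). Of 18 further receptor chains, 10 rose, 1 fell and 7 did not pass. Il12rb1, a chain of the IL-12 and IL-23 receptors, stood at 0.646, 0.302 and 0.956 CPM in the unstimulated libraries and 92.5, 32.7 and 176 CPM with the mixture (7.18 ± 0.72), and Il18rap, of the IL-18 receptor, at 1.03, 1.51 and 1.12 CPM in the unstimulated libraries and 49.4, 16.9 and 34.5 CPM with the mixture (4.76 ± 0.46).

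Of 21 MHC class I and peptide loading genes, 17 rose (81%, against 20.5% of all genes tested) and 4 did not pass, with a median of 1.53. Tap1 and Tap2, the peptide pump, stood at 50.2, 63.6 and 109.9 CPM in the unstimulated libraries and 1099.8, 982 and 1184 CPM with the mixture, and at 54.2, 65.6 and 91.9 CPM in the unstimulated libraries and 585, 620.3 and 713 CPM with the mixture. They rose by 3.94 ± 0.35 (edgeR adjusted p = 2.46e-06) and 3.20 ± 0.13 (5.38e-12). The immunoproteasome subunits Psmb9 (2.82), Psmb10 (2.27) and Psmb8 (2.105) rose, and so did the class I heavy chain genes H2-K1 (1.23) and H2-D1 (0.59). Of 10 class II genes, 4 (40%) rose and 6 did not pass, with a median of 0.38. The share called is near the 43.2% of all genes. With total counts only, 1 rose, and without unstimulated replicate 2, 2 did. The chain genes H2-Aa, H2-Ab1 and H2-Eb1 were below 2 CPM in all 6 libraries and did not pass. The 4 that rose were Ctss (0.28), a protease of the invariant chain, H2-DMa (1.26 ± 0.37, edgeR adjusted p = 0.01, 0.0616 with total counts only and 0.0577 without unstimulated replicate 2), Cd74 and H2-Oa. Cd74, the invariant chain, stood at 21.6, 30.0 and 26.9 CPM in the unstimulated libraries and 39.4, 43.4 and 48.9 CPM with the mixture and rose by 0.76 ± 0.16 (edgeR adjusted p = 0.00068; 0.0534 with total counts only). H2-Oa, a modulator of peptide loading, stood at 0.775, 0 and 0.281 CPM in the unstimulated libraries and 16.5, 21.2 and 15 CPM with the mixture and rose by 5.62 ± 0.64, or 6.84 without unstimulated replicate 1 and 4.92 without unstimulated replicate 2.

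Costimulatory and adhesion genes were split. Cd40, the receptor of T cell help (ENSMUSG00000017652, mm10 chromosome 2, 165055627 to 165072948, plus strand), stood at 0.194, 0.845 and 0.956 CPM in the unstimulated libraries and 661, 504 and 616 CPM with the mixture, with a log2 fold change of 9.76 ± 0.50 (edgeR adjusted p = 1.56e-08). Cd274 (PD-L1), a checkpoint ligand, stood at 29.7, 41.7 and 42.8 CPM in the unstimulated libraries and 609.6, 391 and 745 CPM with the mixture and rose by 3.95 ± 0.34, and Cd86, which engages CD28 on T cells, rose by 3.20 ± 0.25. Mixture and unstimulated libraries were apart in all 3 of these genes. Vsir (VISTA), another checkpoint protein, went the other way, from 349, 460.5 and 445 to 59.6, 72.8 and 58.9 CPM, a log2 fold change of -2.704 ± 0.17 (edgeR adjusted p = 3.31e-09). Havcr2 (TIM-3) fell by 0.94 ± 0.22. Tnfsf4 (OX40 ligand) had 0 unstimulated reads and was at least 38.8-fold higher, with an adjusted p of 0.00304 in edgeR and 0.0513 in DESeq2. Of 14 such ligands tested, 10 rose, 3 fell and 1 did not pass, with a median of 3.49. Tnfsf4 passed the filter for low counts only through cytokine groups and could not have fallen. Pdcd1lg2 and Cd70 were listed but not tested. Slamf8 rose by 6.28 ± 0.60, or 6.86 without mixture replicate 2. Ccrl2, which presents chemerin, rose by 5.29 ± 0.53. Icam1, the ligand of the integrin LFA-1, stood at 41.3, 41.9 and 43.4 CPM in the unstimulated libraries and 1584, 1236 and 1739 CPM with the mixture and rose by 5.18 ± 0.30. Vcam1, the ligand of VLA-4, stood at 23.8, 3.26 and 4.78 CPM in the unstimulated libraries and 144, 108 and 128 CPM with the mixture and rose by 3.96 ± 0.55, or 4.70 without unstimulated replicate 1, its highest control. Cxcr4, the receptor of Cxcl12, fell from 71.8, 91.0 and 47.1 to 5.72, 12.6 and 3.06 CPM (-3.35 ± 0.28, edgeR adjusted p = 1.83e-07). Of 17 adhesion and migration genes, 10 rose, 2 fell and 5 did not pass; with total counts only, 7 rose and 4 fell.

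Enzymes that make antimicrobial metabolites were among the genes that rose most. Nos2, the inducible nitric oxide synthase (ENSMUSG00000020826, mm10 chromosome 11, 78920787 to 78960254, plus strand), had 0 reads in all unstimulated libraries and 131, 70.8 and 226 CPM with the mixture, at least 2392-fold higher (edgeR adjusted p = 3.86e-07). Acod1, which makes itaconate (ENSMUSG00000022126, mm10 chromosome 14, 103046977 to 103056573, plus strand), stood at 1.94, 0.664 and 3.32 CPM in the unstimulated libraries and 3475, 3484 and 4246 CPM with the mixture, with a log2 fold change of 10.90 ± 0.72 (edgeR adjusted p = 3.39e-07). Ch25h, which makes the antiviral sterol 25-hydroxycholesterol, stood at 4.07, 2.29 and 1.07 CPM in the unstimulated libraries and 438, 317 and 463 CPM with the mixture and rose by 7.46 ± 0.72. The mixture libraries of Acod1 and Ch25h lay close to each other relative to their distance from the controls. Kmo, of kynurenine breakdown, had a read ratio of 703 (95% counting interval 126 to 27798), at 0, 0 and 0.0562 CPM in the unstimulated libraries and 16.27, 10.6 and 15.4 CPM with the mixture. Its log2 fold change was 9.09, or 10.85 without unstimulated replicate 3, which held its only unstimulated read. Gch1, which makes the cofactor of nitric oxide synthase, rose by 3.41 ± 0.22, Slc7a2, an arginine transporter, by 3.33 ± 0.39, and Sod2, the mitochondrial superoxide dismutase, by 3.16 ± 0.13. Hmox1, the haem oxygenase, fell by 1.09 ± 0.12, as did Ptgs1 (-1.21 ± 0.21) and Asl (-0.42 ± 0.11). In all, 14 of 20 rose, 3 fell and 3 did not pass, with a median of 2.05. Nos2 passed the filter for low counts only through cytokine groups and could not have fallen.

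**Figure D3:**
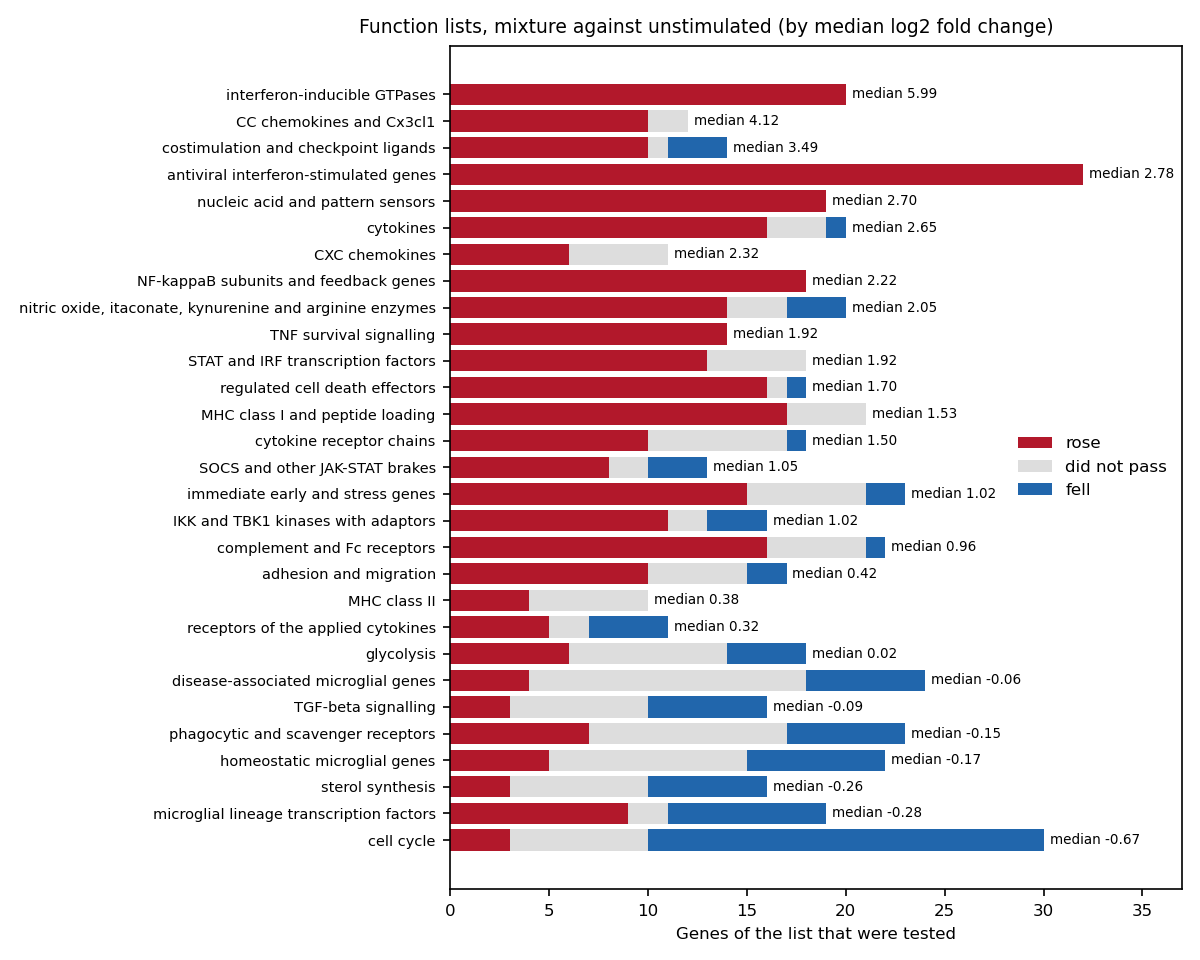
Number of tested genes (x axis) in each of 29 function lists that rose (red), did not pass (grey) or fell (blue), ordered by the list's median log2 fold change, printed beside each bar. The GTPases are at the top with 20 of 20 higher and a median of 5.99, and the cell cycle list is at the bottom with 20 of 30 lower and a median of -0.67.

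Homeostatic and lineage genes of microglia were divided, with large decreases in some and increases in others. Cebpa, a myeloid lineage factor (ENSMUSG00000034957, mm10 chromosome 7, 35119293 to 35121928, plus strand), fell from 801, 1024 and 943 to 38.2, 74.3 and 33.5 CPM, with a log2 fold change of -4.28 ± 0.40 (edgeR adjusted p = 4.7e-06). Its relative Cebpb, a factor of inflammatory activation, rose from 101, 99.7 and 98.9 to 429, 635 and 547 CPM, with a log2 fold change of 2.41 ± 0.13 (edgeR adjusted p = 1.2e-10). The groups were apart in both genes, in opposite directions. Mef2c (-2.04 ± 0.14) and Bhlhe41 (-2.22 ± 0.24) fell, while Spi1 (PU.1), the master factor of the myeloid line, rose by 1.25 ± 0.11 and Maf by 0.88 ± 0.10. Sall1, the factor that marks brain microglia, rose by 0.74 ± 0.14, and its relative Sall3 fell by 1.33 ± 0.23. Of 19 lineage factors, 9 rose, 8 fell and 2 did not pass, with a median of -0.28; with total counts only, 8 rose and 10 fell.

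Of 22 homeostatic genes, 5 rose, 7 fell and 10 did not pass, a called share of 54.5% against 43.2% of all genes. Their median was -0.17, and with total counts only 4 rose and 14 fell. Cx3cr1, the fractalkine receptor by which microglia sense neurons, fell from 811, 959 and 977 to 110.2, 285 and 111 CPM, with a log2 fold change of -2.48 ± 0.32 (edgeR adjusted p = 5.89e-05). Gpr34, a lysophosphatidylserine receptor, fell from 95.6, 114 and 104 to 8.62, 12.03 and 19.2 CPM (-3.03 ± 0.19, edgeR adjusted p = 8.48e-10). Tmem119 fell from 7.10, 7.24 and 5.51 to 0.892, 1.17 and 0.486 CPM (-2.98 ± 0.36) and Slco2b1, a transporter, from 85.2, 114 and 91.5 to 15.5, 13.9 and 9.86 CPM (-2.89 ± 0.27). No mixture library of these 4 genes reached the unstimulated range. The purine receptors P2ry12 (15.6, 26.2 and 24.5 CPM before and 47.3, 44.5 and 59.8 CPM with the mixture, 1.21 ± 0.17) and P2ry13 (2.01 ± 0.36) rose. Csf1r (-0.20, edgeR adjusted p = 0.0742) and Trem2 (-0.19, 0.0845) did not pass. In bulk samples, fewer cells of a type and less RNA per cell cannot be told apart.

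Genes of the disease-associated microglial state, a programme described in neurodegeneration, did not move together. Of 24 listed, 4 rose, 6 fell and 14 did not pass, a called share of 41.7% against 43.2% of all genes, with a median of -0.06. With total counts only, 4 rose and 17 fell, and without the replicate block 4 rose and 2 fell. Those that rose were Ch25h, Cst7, a protease inhibitor, from 0.839, 0.181 and 1.24 to 59.4, 49.8 and 53.8 CPM (6.17 ± 0.54), Csf1 (1.92 ± 0.26) and Axl (1.86 ± 0.12), a receptor for dying cells. Apoe, a lipid carrier central to that programme, stood at 9727, 11112 and 2194 CPM in the unstimulated libraries and 8961, 9614 and 3698 CPM with the mixture. Replicate 3 was far below replicates 1 and 2 in both groups, and Apoe did not pass (0.14, edgeR adjusted p = 0.559). Spp1 (0.35, edgeR adjusted p = 0.219) and Clec7a (-0.18, 0.381) did not pass either.

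Complement and Fc receptor genes mostly rose, with 16 of 22 higher, 1 lower and a median of 0.96. C3, the central complement protein, stood at 10.4, 5.55 and 7.09 CPM in the unstimulated libraries and 240.0, 297 and 230.1 CPM with the mixture, with a log2 fold change of 5.07 ± 0.29 (edgeR adjusted p = 5.92e-09). The C1q chain genes C1qa (0.67), C1qb (0.97) and C1qc (0.66) rose by less than 2-fold. Serping1, the C1 inhibitor, stood at 1.74, 0.784 and 1.24 CPM in the unstimulated libraries and 60.4, 13.5 and 83.7 CPM with the mixture and rose by 5.31 ± 0.69, or 5.91 without mixture replicate 2, its lowest mixture library. The activating Fc receptors Fcgr4, from 36.2, 45.6 and 99.8 to 544, 365 and 899 CPM, and Fcgr1 rose by 3.38 ± 0.24 and 2.47 ± 0.23. Phagocytic and scavenger receptors split into 7 higher, 6 lower and 10 not passing, a called share of 56.5% against 43.2% of all genes. Their median was -0.15, and with total counts only 5 rose and 12 fell. Timd4, a phosphatidylserine receptor, stood at 0, 0.362 and 0.787 CPM in the unstimulated libraries and 32.2, 13.4 and 40.2 CPM with the mixture and rose by 6.12 ± 0.67, or 7.14 without unstimulated replicate 3 and 5.51 without unstimulated replicate 1. Cd300lf (1.86) and Axl rose, and Cd300a (-1.38) and Itgb5 (-1.01) fell.

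Most cell cycle genes fell. Of 30 tested, 20 fell, 3 rose and 7 did not pass, beside 22.6% lower among all genes, and the median was -0.67; without the replicate block, 13 fell and 2 rose. The replication helicase genes Mcm2 (-1.28 ± 0.14), Mcm3 (-1.27 ± 0.12) and Mcm4 (-1.04 ± 0.11) fell, and so did E2f1 (-1.14 ± 0.14), which drives entry into S phase, and Mki67 (-0.63 ± 0.18), a mark of dividing cells. For Mcm3 the values were 61.3, 67.6 and 77.7 CPM in unstimulated and 28.5, 25.1 and 32.2 CPM in mixture libraries. The 3 that rose were Cdkn1a (p21), which arrests the cycle, from 172, 203 and 256 to 811, 942 and 632 CPM (1.93 ± 0.21, edgeR adjusted p = 3.52e-06), and the D cyclins Ccnd1 (1.80 ± 0.17) and Ccnd2 (2.32 ± 0.45). Ccnd2 stood at 132, 10.9 and 18.9 CPM in the unstimulated libraries and 233, 63.7 and 197 CPM with the mixture. Its groups overlap, with replicate 1 the highest in both, and without the replicate block it did not pass (1.62, edgeR adjusted p = 0.354).

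Metabolic lists were mixed. Of 18 glycolysis genes, 6 rose, 4 fell and 8 did not pass, a called share of 55.6% against 43.2% of all genes. Their median was 0.02, and with total counts only 5 rose and 11 fell. Pfkp, a phosphofructokinase, from 49.0, 37.5 and 55.0 to 194, 123 and 303 CPM (2.09 ± 0.16), Pfkfb3, which makes its activator (1.70 ± 0.16), and Slc2a1, a glucose transporter (1.66 ± 0.13), rose most. Gapdh stood at 862, 881 and 936 CPM in the unstimulated libraries and 868, 903 and 925 CPM with the mixture and did not pass (0.0099, edgeR adjusted p = 0.936). In sterol synthesis and transport, 3 of 16 rose, 6 fell and 7 did not pass, a called share of 56.2%. With total counts only, 2 rose and 12 fell. Dhcr7, of the last step of cholesterol synthesis, fell from 50.2, 45.6 and 50.3 to 18.8, 21.4 and 12.9 CPM (-1.47 ± 0.14), and Sqle (-1.19 ± 0.13) fell too. Abcg1, a sterol exporter, rose by 1.27 ± 0.17.

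Immediate early and stress genes rose in 15 of 23 cases and fell in 2, with a median of 1.02. Dusp2, a nuclear phosphatase of MAP kinases, stood at 2.84, 1.27 and 1.57 CPM in the unstimulated libraries and 93.5, 88.5 and 72.7 CPM with the mixture, with a log2 fold change of 5.49 ± 0.38 (edgeR adjusted p = 3.92e-08). Junb rose by 2.50 ± 0.12, Gadd45b by 2.39 ± 0.14 and Zfp36, which destroys cytokine mRNA, by 1.98 ± 0.12, while Nr4a1 fell by 2.44 ± 0.31. The heat shock gene Hspa1b rose by 2.65 ± 0.72, or 3.33 without unstimulated replicate 1, and shares reads with its copy Hspa1a. Fos (0.19, edgeR adjusted p = 0.445), Jun (0.01, 0.973) and Egr1 (0.22, 0.377) did not pass at this time. Of 16 TGF-beta genes, a pathway that maintains microglia, 3 rose, 6 fell and 7 did not pass (56.2% called, against 43.2% of all genes). Its receptors Tgfbr1, from 222, 291 and 352 to 125, 105 and 203 CPM (-1.01 ± 0.16), and Tgfbr2, from 304, 368 and 419 to 122, 195 and 200.3 CPM (-1.09 ± 0.12), fell, and Skil, a brake on SMAD proteins, rose by 0.96 ± 0.10.

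The largest decreases among well-detected genes had no common list. Gpr183 (EBI2; ENSMUSG00000051212, mm10 chromosome 14, 121952551 to 121965195, minus strand), the receptor for oxysterols made from 25-hydroxycholesterol, fell from 53.5, 76.6 and 55.6 to 0.743, 4.37 and 0.347 CPM, with a log2 fold change of -5.20 ± 0.46 (edgeR adjusted p = 1.07e-06). Mixture replicate 2 kept the most of it, and without that library the log2 fold change was -6.62. Abcd2, a peroxisomal transporter of very long fatty acids (ENSMUSG00000055782, mm10 chromosome 15, 91145871 to 91191799, minus strand), fell from 104, 132 and 115 to 3.71, 7.36 and 3.33 CPM, with a log2 fold change of -4.62 ± 0.21 (edgeR adjusted p = 1.19e-11). Rasgrp3, an activator of Ras proteins, fell from 123, 165 and 166 to 10.8, 12.5 and 14.7 CPM (-3.57 ± 0.17), and Lhfpl2 from 175, 201 and 205 to 13, 20.4 and 17.02 CPM (-3.53 ± 0.22). In each of these genes all 3 mixture libraries were far below the lowest control, but the naming rule required groups that did not overlap. Sesn1, a stress-induced brake on mTOR signalling, fell by 3.81 ± 0.41. Chst10 (-3.91 ± 0.29), a sulfotransferase, Zfp395 (-4.01), Baiap2l2 (-3.90), Klhl24 (-3.79), Zdhhc14 (-3.74) and Engase (-3.53) fell too. For Zfp395 the value was -4.60 without mixture replicate 3. Among the genes that rose most, Cd69, an early activation marker that holds cells in tissue, stood at 0.646, 0.362 and 1.52 CPM in the unstimulated libraries and 774, 609.6 and 400.3 CPM with the mixture, with a log2 fold change of 9.41 ± 0.84 (edgeR adjusted p = 4.17e-06), or 10.24 without unstimulated replicate 3.

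Where single cytokines are set beside the mixture, 3 patterns of level appear among the genes named. The mixture was tested directly against IFNg, with 3844 genes called (26.3%; 1739 higher, 2105 lower), and against TNFa, with 5414 called (37%; 2614 higher, 2800 lower). Without the replicate block, 2089 genes were called against IFNg. The split against IFNg depends on the scaling and on single libraries, with 2074 higher and 1640 lower under RLE size factors and 1139 higher and 4360 lower with total counts only. It was 1922 higher and 1297 lower without mixture replicate 1, 1809 and 1277 without mixture replicate 2, and 1767 and 1394 without mixture replicate 3. Against TNFa it was 1664 higher and 5516 lower with total counts only. These comparisons share the mixture libraries. In the first pattern the mixture stood above both. Ccl5 was 12.03 ± 3.33 CPM (mean ± SD, n = 3 in each group) with IFNg, 14.9 ± 1.27 CPM with IFNa, 6.21 ± 3.83 CPM with IL-6, 15.4 ± 5.77 CPM with TNFa and 510.0 ± 191 CPM with the mixture. Its log2 difference was 5.46 ± 0.45 (edgeR adjusted p = 6.44e-06) from IFNg and 5.12 ± 0.44 (edgeR adjusted p = 3.15e-06) from TNFa. Nos2 was at most 2.47 ± 2.26 CPM with a single cytokine (IFNg) and 143 ± 78.1 CPM with the mixture, a log2 difference of 5.94 ± 0.48 (edgeR adjusted p = 8.52e-06) from IFNg. Cxcl11 was 45.9 ± 12.5 CPM with IFNg, 7.88 ± 9.54 CPM with TNFa and 1107 ± 259 CPM with the mixture, a difference of 4.62 ± 0.60 (edgeR adjusted p = 0.000215) from IFNg. Cebpa mirrored this downward, at 923 ± 113 CPM unstimulated, 388 ± 90.5 CPM with IFNg, 153 ± 57.0 CPM with TNFa and 48.7 ± 22.3 CPM with the mixture, and differed from TNFa by -1.67 ± 0.37 (edgeR adjusted p = 0.00362).

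In the second pattern the mixture stood nearest to 1 of the single cytokines. Ikbke was 7.40 ± 2.01 CPM unstimulated, 43.0 ± 1.32 CPM with IFNg, 21.5 ± 5.94 CPM with IFNa, 15.6 ± 4.57 CPM with IL-6, 192 ± 29.4 CPM with TNFa and 278 ± 42.6 CPM with the mixture. It was higher with the mixture than with TNFa by 0.53 ± 0.17 (edgeR adjusted p = 0.0227) and than with IFNg by 2.68 ± 0.18 (edgeR adjusted p = 6.7e-08). Ikbke thus belongs to the first pattern as well. Irf1 was 1246 ± 122 CPM with IFNg and 1018 ± 521 CPM with the mixture, a difference of -0.34 ± 0.36 (edgeR adjusted p = 0.567) that did not pass. Nfkbia was 592 ± 52.6 CPM with TNFa and 514 ± 128 CPM with the mixture, and that difference did not pass either (-0.23 ± 0.13, edgeR adjusted p = 0.203).

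In the third pattern the mixture stood below a single cytokine. Ptges, a prostaglandin E synthase, was 309 ± 79.0 CPM with TNFa and 44.8 ± 13.9 CPM with the mixture, a log2 difference of -2.76 ± 0.32 (edgeR adjusted p = 2.13e-05). Il1b was 85.8 ± 25.1 CPM with TNFa and 27.6 ± 22.2 CPM with the mixture (-1.86 ± 0.24, edgeR adjusted p = 8.19e-06), and Cxcl2, which attracts neutrophils, was 35.7 ± 19.0 CPM and 5.92 ± 6.37 CPM (-2.63 ± 0.55, edgeR adjusted p = 0.00156). Both still rose against unstimulated cells. Ciita was 14.6 ± 3.94 CPM with IFNg and 3.74 ± 3.11 CPM with the mixture, a difference that did not pass (-2.36 ± 0.93, edgeR adjusted p = 0.0861). Il4ra, a chain of the IL-4 receptor, was 548 ± 122 CPM with IL-6, 61.1 ± 2.25 CPM unstimulated and 77.0 ± 32.9 CPM with the mixture, and the mixture was not tested against IL-6 here.

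**Figure D4:**
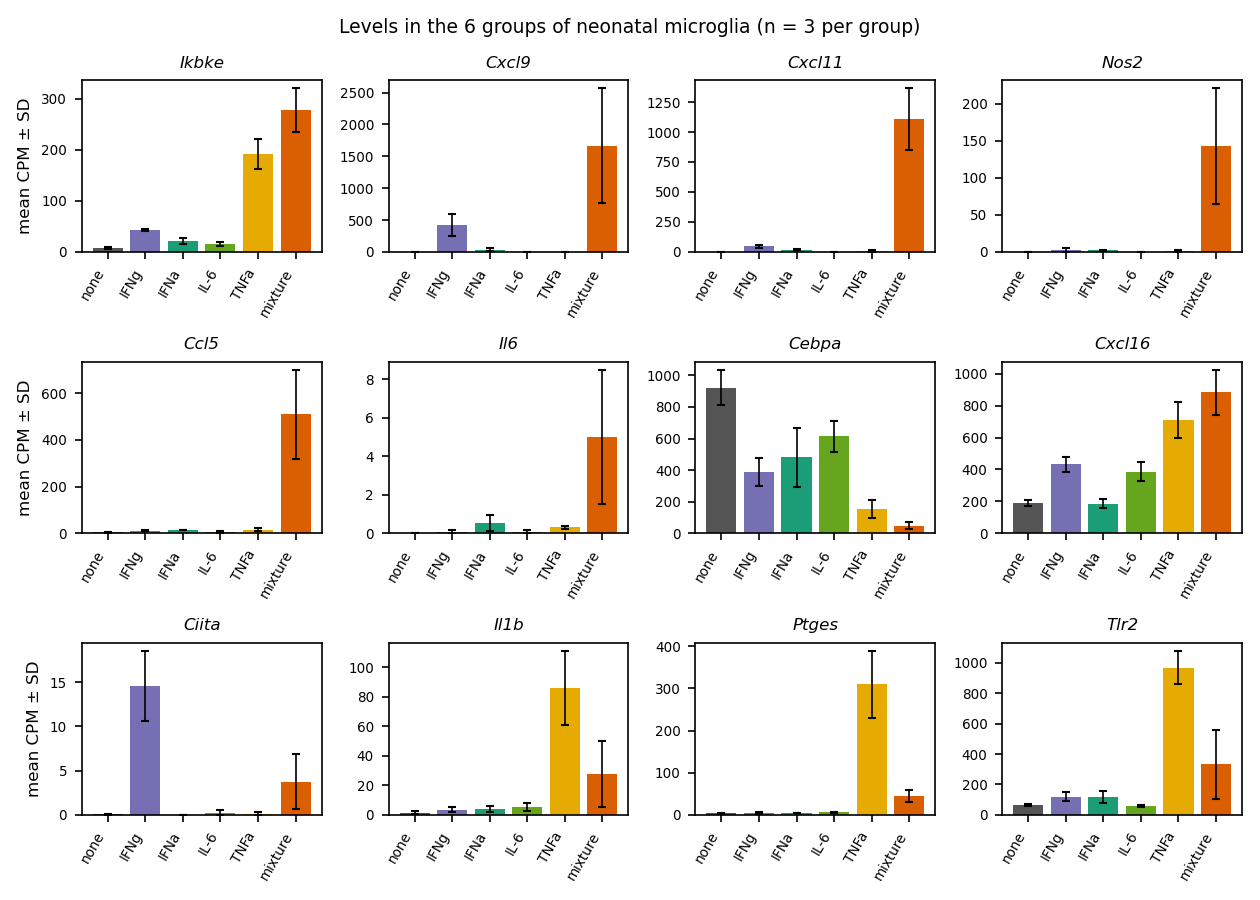
Mean CPM with SD (y axis, from 0, a scale of its own in each panel) of 12 genes in the 6 groups of neonatal microglia, n = 3 per group; "none" is unstimulated. Ikbke, Cxcl9, Cxcl11, Nos2, Ccl5 and Il6 are highest with the mixture, Ciita with IFNg, and Il1b, Ptges and Tlr2 with TNFa, while Cebpa is lowest with the mixture.

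Summed markers of other cell types overlapped between the groups for some lists, and in others differed through a few genes. Neutrophil markers summed to 12.5 to 163 plain CPM unstimulated and 8.32 to 51.7 with the mixture, ranges that overlap, and 3 of 9 tested fell (Camp, -2.24; Ltf, -2.26; Mpo, at 0 with the mixture). Monocyte markers summed to 86.2 to 294 and 154 to 390, and 4 of 8 rose, among them Plac8 (3.62 ± 0.64), Vcan (2.54 ± 0.42) and Itga4 (2.11). Summed T cell markers overlapped at 28.1 to 35.2 and 30.3 to 74.1 plain CPM, with Cd8a and Cd8b1 at 0 in both groups and Cd3d and Cd3e at 0 with the mixture. Lck, a kinase best known from T cells, stood at 1.48, 0.965 and 1.29 CPM in the unstimulated libraries and 72.6, 24.2 and 51.3 CPM with the mixture (5.30 ± 0.52, edgeR adjusted p = 1.61e-06). Klrk1 (NKG2D), a receptor of NK cells, stood at 0.0646, 0.603 and 5.34 CPM in the unstimulated libraries and 69.1, 53.2 and 133 CPM with the mixture (5.74 ± 0.75). Among other NK cell markers, Klre1 and Klra8 were at 0 in both groups. Ncr1 and Klrb1c were at 0 only with the mixture, and Prf1 and Gzma only in unstimulated cells. The NK cell list summed to 1.04 to 5.52 and 44.3 to 101 plain CPM, with the mixture almost wholly through Klrk1, the only 1 of its 8 markers tested. The values of Klrk1 above are TMM-scaled, which runs higher than plain CPM in the mixture libraries. Endothelial markers summed to 38.9 to 57.8 and 132 to 164, through the VEGF receptor genes Flt1 (3.02 ± 0.22) and Kdr (2.73 ± 0.40); the other 5 tested did not pass. Oligodendrocyte markers summed to 121 to 156 and 275 to 307, through Cnp (2.55 ± 0.12), while Mbp fell by 1.09 ± 0.14. The part of other cells in these results was not tested. Astrocyte markers, high in replicate 1 of both groups, had 1 of 10 called, with 0 without the replicate block and 3 in DESeq2.

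**Figure D5:**
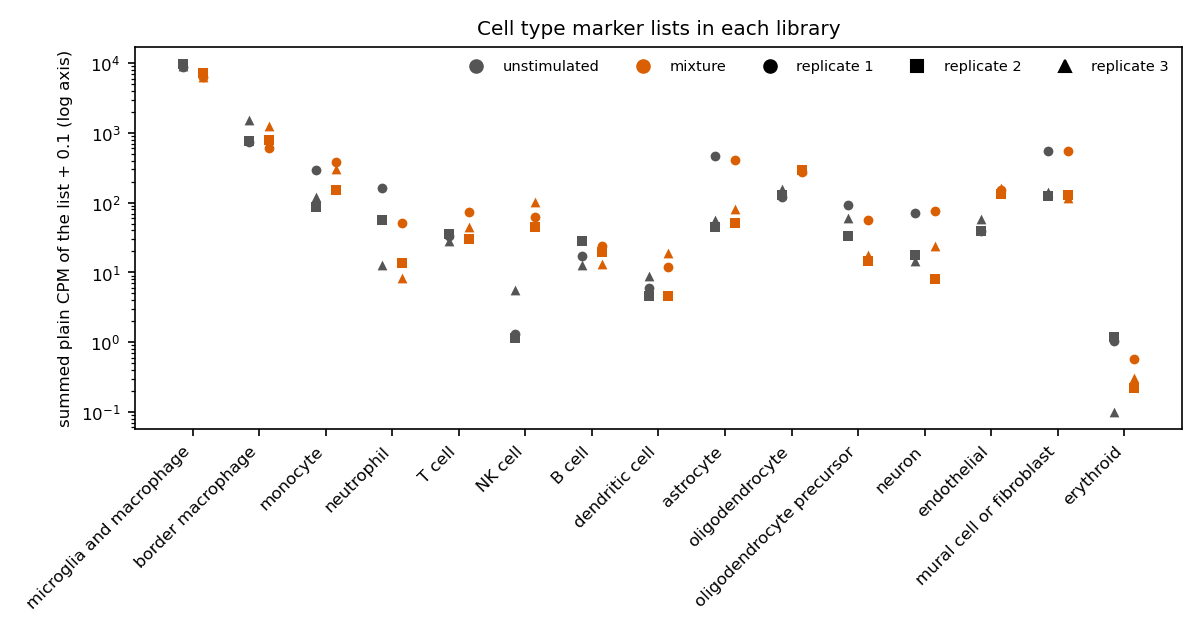
Summed plain CPM plus 0.1 (log axis) of 15 cell type marker lists in the 3 unstimulated (grey) and 3 mixture (orange) libraries, with marker shapes for replicates. Microglia and macrophage markers are the highest in all 6 libraries, and replicate 1 (circle) of both groups stands above the others for astrocyte and mural cell or fibroblast markers.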

How the data were processed

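RNA-seq reads had been counted per gene by the authors, who deposited raw read counts for 55434 genes in 24 libraries; the 18 neonatal libraries were used here. Per the submitters' processing notes, cutadapt 2.1, STAR 2.7.1a and mm10 were used. How reads were assigned to genes, and by which strand, was not given in the sources used here, which leaves overlapping, antisense and near-identical genes uncertain.

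Counts were scaled by TMM, genes of low count were removed by filterByExpr (14626 kept), and group effects with the replicate number as a block were fitted by edgeR 4.0.16 (R 4.3.3) with robust quasi-likelihood, Benjamini-Hochberg adjusted over all genes. Log2 CPM, used in the naming rule and the pairing check, has a prior count of 2, and the fold changes are those of the fit. Genes with 0 reads in a group were set against a floor of 3 reads over the group, and counting intervals (95%) cover counting error only. The filter used all 6 groups, so genes at 0 in unstimulated cells passed it only through cytokine groups and could not fall. Listed genes that failed the filter were not tested. In 45 of 45 same-numbered pairs of libraries, deviations from the group means correlated above 0.1 (0.184 to 0.687), which is the pairing the block uses. Between mixture and unstimulated libraries, same-numbered pairs were at 0.314 to 0.596 and different-numbered pairs at -0.461 to 0.168, so a value above 0.1 does not by itself mark a pair. Replicates differed by more than sampling noise. On simulated counts for 14214 genes, 200 were changed, as many up as down. The test recovered 73% of 2-fold and 86% of 4-fold changes, and 3.05% of its calls were false. Far more genes changed in the data, so this simulation cannot check the scaling.

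The genes named are Ikbke, the 3 called members of each function list with the largest change, and, in each direction, the 12 called genes that moved most among those of mean log2 CPM of at least 3 whose groups did not overlap, leaving out predicted genes. For these 12 in each direction, separation of the groups was required by the choice and is not separate evidence. A few genes are counted in the lists but not reported by name here. The members, function lists and marker lists were chosen with earlier results of these data known. Coordinates are from GENCODE M21, which matched 99.4% of gene identifiers. Alternatives were no replicate block, DESeq2 1.42.0, limma-voom (limma 3.58.1), RLE or total-count scaling, other filters, only the 2 groups, and each library left out.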

Additional observations from a re-analysis of the deposited data

How the results depend on the processing

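Across all alternatives run, the total counts of genes called, per comparison and summed over lists, stayed within 1.5 times the reported ones with 1 exception. Without the replicate block, 2089 genes were called between the mixture and IFNg (944 higher, 1145 lower) against 3844 with the pairing, and the cause was not tested. Counts within single lists, and the split into higher and lower, moved by more than that in some alternatives, as given above. The other counts without the block were 4687 (2289 higher, 2398 lower) against unstimulated cells and 3684 against TNFa. With 1 library left out at a time, 5362 to 5751 genes were called against unstimulated cells, 2762 to 2997 of them at least 2-fold, with 2908 to 3219 against IFNg and 4564 to 4936 against TNFa. Called genes summed over function lists numbered 401, and 377 to 396 with a library left out; over marker lists, 31 and 25 to 30. DESeq2 called 6546 genes, limma-voom 6415, RLE scaling 6271 (3295 higher, 2976 lower) and the 2 groups alone 5393. Of the 102 genes named by the rule, 0 changed direction. Calls were lost in 6 of the 1426 alternative values: Ccnd2 without the replicate block, Tnfsf4 in DESeq2, Cxcl9 in limma-voom, H2-DMa with total counts only and without unstimulated replicate 2, and Cd74 with total counts only. Removing the block changed no other call among these genes. Genes at under 1 CPM in unstimulated cells have fold changes limited by depth.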

Other observations

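Long noncoding RNAs, as labelled in the deposited counts, also responded, and whether any is translated was not tested. Of 640 tested, 81 rose and 59 fell (21.9%), against 46.2% of 13151 protein-coding genes, whose read counts were not matched to them. AW112010 stood at 1.55, 1.69 and 3.32 CPM in the unstimulated libraries and at 268, 243 and 235 CPM with the mixture, a log2 fold change of 6.83 ± 0.33 (edgeR adjusted p = 8.78e-10). All mixture libraries were far above all controls. Gm20559 stood at 12.01, 12.9 and 27.5 CPM and at 132, 154 and 153 CPM, a log2 fold change of 3.15 ± 0.28 (edgeR adjusted p = 7.69e-07). Among the long noncoding RNAs that fell, Gm5086 went from 13.6, 16.0 and 21.04 CPM to 1.78, 4.23 and 3.75 CPM, a log2 fold change of -2.39 ± 0.27 (edgeR adjusted p = 6.88e-07). These genes were picked with their values in view.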
